A study of Mus musculus with 3 samples.

Results

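A set of 10 genes of the antigen presentation and immunoproteasome pathway was followed through the 3 RNA sequencing libraries of mouse JB6 P+ cells. They were chosen by gene symbol, and all 10 were found among the 24421 genes of the count table. The members are the class I heavy chain genes H2-K1 and H2-D1, the light chain gene B2m, the peptide transporter genes Tap1 and Tap2, the loading factor gene Tapbp, the immunoproteasome subunit genes Psmb8, Psmb9 and Psmb10, and the class II invariant chain gene Cd74. JB6 P+ is a mouse epidermal line, labelled as skin epithelial cells, in which tumour promoters induce transformation. Besides a control, 1 group received the phorbol ester TPA (10 ng/mL) and another received TPA (10 ng/mL) with the synthetic triterpenoid CDDO (50 nM). The 2 treated groups were dosed every other day for 5 days in medium with 1% serum. The serum, time and vehicle of the control group are not given in the sources used here, so its differences from treated cells cannot be told apart from those. The count column taken as CDDO+TPA names CDDO without TPA, and CDDO+TPA is the sample whose labels name CDDO.

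There was 1 library per group, so no difference below was tested against the spread between cultures. Libraries held 7813035 to 8190078 reads assigned to genes. Every interval is a 95% interval for counting error of reads only. CPM is the read count of a gene per 1000000 reads of the scaled total of its library. A gene counted as measured where any library reached 1 CPM, as 13100 genes did. The size rule asks of a measured gene a log2 fold change of 1 or more, up or down, and a CPM ratio whose counting interval excludes 1. Of the 12 keratinocyte markers listed, 5 were measured, with summed levels of 177, 247 and 271 CPM over the list in control, TPA and CDDO+TPA. Most of these sums came from Jup (73.5, 122 and 101 CPM) and Itga6 (86.2, 91.4 and 158 CPM). Krt10 went the other way, at 13.0, 9.16 and 6.59 CPM, and the table held 0 reads of Epcam, Krt1 and Krt5 for all libraries. Of the 11 fibroblast markers, 9 were measured, with summed levels of 3043, 1988 and 2445 CPM. In TPA against control, Pdgfra and Dcn of that list were higher past the rule and Col1a1, Col1a2 and Col3a1 lower. Of the 7 endothelial markers, 3 were measured, with summed levels of 66.5, 303 and 218 CPM, mostly from Vwf, which was 5.80-fold higher in TPA (5.22 to 6.47). Of the 18 leukocyte markers in the table, 6 were measured, with summed levels of 70.8, 99.0 and 146 CPM, and Ptprc, Cd3e, Ms4a1 and Tyrobp were among those with 0 reads in every library.

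Class I molecules display peptides from inside the cell to T cells. The proteasome cuts proteins, the TAP transporter carries the fragments into the endoplasmic reticulum, and tapasin helps load them onto a heavy chain paired with beta-2-microglobulin. Interferon induces much of this pathway, including 3 catalytic subunits that replace their constitutive counterparts in the immunoproteasome. The invariant chain CD74 instead guides class II molecules, which are typical of professional antigen-presenting cells, and also serves as a receptor for the cytokine MIF.

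The 7 members H2-K1, H2-D1, Tap1, Tap2, Tapbp, Psmb8 and Psmb9 lie within one stretch of chromosome 17, the major histocompatibility complex, in mm10. H2-K1 (chromosome 17, 33996012 to 34000333, minus strand) and H2-D1 (chromosome 17, 35263094 to 35267497, plus strand) lie at either side of the antigen processing genes. Tapbp lies at 33919478 to 33929290 on the plus strand. Psmb9 (34182099 to 34187330, minus strand) and Tap1 (34187556 to 34197225, plus strand) face away from each other, with 225 bases between their annotated starts. Psmb8 (34198195 to 34201454) starts 969 bases after the end of Tap1, and Tap2 (34204479 to 34216321) starts 3024 bases after the end of Psmb8, all on the plus strand. B2m lies on chromosome 2 (122147687 to 122153082, plus strand) and Psmb10 on chromosome 8 (105935728 to 105938392, minus strand), while Cd74 lies elsewhere.

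Sequence before the start sites is shown for 5 places where members that share a position or a partner can be compared, from RefSeq on GRCm38.p6. Windows from 250 bases before to 50 after a start were matched by symbol for 8 of the 10 members, and Tap2 and Cd74 were not matched. Capitals mark matches on either strand to the interferon-stimulated response element GAAANNGAA, the gamma-activated site TTCNNNGAA, a kappa-B motif GGGNNTTNC, the TPA response element TGANTCA, the antioxidant response element TGACNNNGC or the CCAAT box CCAAT. The first line is the whole stretch between the starts of Psmb9 and Tap1, and the others hold the matches with 15 bases around them or up to the start.
Tap1 and Psmb9 (chr17:34187331-34187555, plus strand): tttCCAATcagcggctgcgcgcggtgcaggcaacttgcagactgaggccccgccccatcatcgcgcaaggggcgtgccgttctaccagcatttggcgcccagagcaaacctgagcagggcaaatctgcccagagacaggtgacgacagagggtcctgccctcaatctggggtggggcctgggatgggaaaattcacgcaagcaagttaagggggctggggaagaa
H2-K1 (chr17:34000348-34000473, minus strand): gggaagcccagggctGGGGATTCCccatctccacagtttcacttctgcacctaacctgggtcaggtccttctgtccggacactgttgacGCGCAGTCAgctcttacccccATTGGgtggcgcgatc
H2-D1 (chr17:35262908-35263060, plus strand): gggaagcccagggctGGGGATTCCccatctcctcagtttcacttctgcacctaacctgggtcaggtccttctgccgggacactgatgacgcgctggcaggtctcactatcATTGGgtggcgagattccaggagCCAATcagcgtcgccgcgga
B2m (chr2:122147533-122147653, plus strand): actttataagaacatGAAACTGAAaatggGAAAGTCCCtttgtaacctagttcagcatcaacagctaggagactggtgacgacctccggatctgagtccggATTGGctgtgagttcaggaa
Psmb8 (chr17:34198083-34198121, plus strand): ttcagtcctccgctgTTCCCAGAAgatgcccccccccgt

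The H2-K1 and H2-D1 stretches were identical over their first 32 bases, which hold the same kappa-B match, and equal at 93 of the first 100 bases aligned without gaps. With the start site counted as 0, that match lies at -111 to -103 in H2-K1 and at -171 to -163 in H2-D1. H2-K1 has another annotated start, from which the same match lies at -125 to -117. The B2m stretch held a match to the letters of the interferon element at -139 to -131 and a kappa-B match at -125 to -117. Of all 32851 promoter windows, 8.56% held the interferon element and 15.2% the kappa-B motif. The gamma-activated site, at -97 to -89 of Psmb8, was in 8.3% of windows. The antioxidant element, at -37 to -29 of H2-K1 or -51 to -43 from its other start, was in 12.4%. The CCAAT box was in 37.4%. No window of a matched member held the TPA response element, which 7.81% of windows did. These matches describe letters and not binding, and a site that departs from the listed letters would not be marked.

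Levels between genes are compared per kilobase of exon. B2m was the most abundant member in every library, at 182, 177 and 184 CPM per kilobase in control, TPA and CDDO+TPA, above at least 99.7% of measured genes. Tapbp was next in every library, with 84.5, 57.7 and 65.5 CPM per kilobase. The heavy chain genes followed, H2-D1 at 49.1, 38.5 and 45.0 and H2-K1 at 46.6, 35.6 and 36.3 CPM per kilobase. These 2 levels could not be told apart by counting error in control and TPA, whereas H2-D1 was 1.24-fold above H2-K1 (1.10 to 1.40) in CDDO+TPA. The entry H2-L (35263123 to 35266730) lies within H2-D1 on the same strand and had 1, 0 and 0 reads. Reads over both entries may have been counted for neither, which was not tested. The level of H2-D1 per kilobase, and its place among the members, would then be understated. Tap2 stood above Tap1 in each library. At the bottom, Psmb9 and Psmb8 had 0.774 and 0.408 CPM per kilobase in control, levels whose counting interval did not separate them. In the TPA library the lowest pair was Psmb8 at 3.59 and Psmb9 at 0.779 CPM per kilobase, and in CDDO+TPA it was Psmb9 at 1.41 and Psmb8 at 0.311. Cd74 and Tap1 were not separated in control, nor were Cd74 and Psmb8 in TPA, nor Psmb10 and Tap1 in CDDO+TPA.

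**Figure D1:**
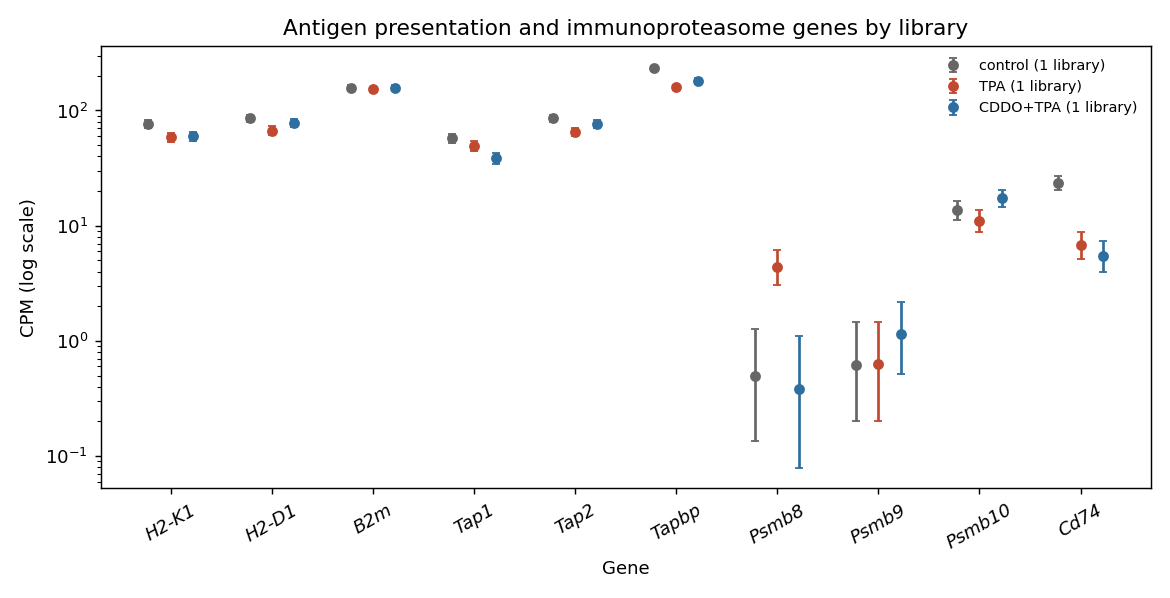
CPM on a log scale for the 10 members in control, TPA and CDDO+TPA (1 library each), with 95% Poisson counting intervals as bars. Psmb8 stands out in TPA at 4.39 CPM, Cd74 is highest in control at 23.6 CPM, and B2m is level at 152 to 158 CPM.

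Setting TPA beside control addresses how the 1 library of cells given the promoter alone differed from the 1 control library. Psmb8 was higher and Cd74 lower past the size rule, and the other 8 members were not past it. Over all 13100 measured genes, 15.5% were past the rule in this comparison, 9.57% higher and 5.91% lower. The class I heavy chain, transporter and loading genes were all lower by 1.16-fold to 1.47-fold, below the size rule, and B2m did not differ by counting error. The median log2 fold change of the 10 members was -0.33, beside 0.00 for all measured genes.

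Among the class I heavy chains, H2-K1 had 615 reads in control, 467 in TPA and 471 in CDDO+TPA, or 76.8, 58.6 and 59.7 CPM. It was 1.31-fold lower in TPA than in control (1.16 to 1.48) and level between TPA and CDDO+TPA. H2-D1 had 683, 532 and 616 reads in the same order, or 85.2, 66.8 and 78.1 CPM. That gene was 1.28-fold lower in TPA (1.14 to 1.43) and stood between the other libraries in CDDO+TPA. Of the 50-base stretches of their coding transcripts, 6.87% for H2-K1 and 13.9% for H2-D1 also occur in other genes, mostly other class I genes. Reads of these stretches cannot be assigned with certainty. Summed, the heavy chains were 1.29-fold lower in TPA (1.19 to 1.40).

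B2m, whose protein is the invariant partner of every class I heavy chain, had 1252, 1213 and 1244 reads, or 156, 152 and 158 CPM. The ratio of TPA to control was 0.975 (0.900 to 1.06), and its sign turned with library totals or upper-quartile scaling. Per kilobase, B2m stood 1.90, 2.40 and 2.26 times above the summed heavy chains in control, TPA and CDDO+TPA. H2-D1 reads over the H2-L entry may be missing from that sum, which would overstate these ratios. With 1.41 to 1.46 reads per exonic base, B2m was the member closest to a cap from duplicate removal. Such a cap could narrow its differences, which was not tested.

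Tap1 and Tap2 encode the paired subunits of the peptide transporter. Tap1 had 57.2, 49.2 and 38.4 CPM in control, TPA and CDDO+TPA, and Tap2 had 85.5, 65.2 and 76.8 CPM. Tap1 was thus lowest in CDDO+TPA and Tap2 lowest in TPA. Tap1 relative to Tap2, per kilobase within a library, was 56.4% in control (50.0 to 63.6), 63.8% in TPA (55.8 to 72.8) and 42.2% in CDDO+TPA (36.6 to 48.5). The CDDO+TPA interval lay below both others. Tapbp, which encodes tapasin, had 232, 159 and 180 CPM, and its 1.47-fold lower level in TPA (1.36 to 1.57) was the largest difference among the class I heavy chain, light chain, transporter and loading members in TPA against control.

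The inducible catalytic subunits were scarce beside the constitutive ones they replace. Psmb8 had 4 reads in control, 35 in TPA and 3 in CDDO+TPA, so that the TPA library alone carried it above 1 CPM. Psmb8 was 8.80-fold higher in TPA than in control (3.15 to 34.1). As Psmb8 entered the comparison through the TPA library alone, a difference was built into its entry. Of all 3387 genes with 1 to 10 reads in control, 15.2% were past the size rule upward in TPA, and 208 of them, Psmb8 included, had a ratio at least as large as that of Psmb8. Psmb9 had 5, 5 and 9 reads and passed 1 CPM through the CDDO+TPA library alone. The interval of every Psmb9 ratio between libraries included 1, as for CDDO+TPA against TPA at 1.82-fold higher (0.547 to 6.90). Psmb10 had 110, 88 and 136 reads, or 13.7, 11.05 and 17.2 CPM, and did not differ between TPA and control by counting error.

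Relative to Psmb5, the constitutive chymotrypsin-like subunit gene, Psmb8 stood at 0.845% per kilobase in control (0.229 to 2.18), 8.69% in TPA (5.93 to 12.4) and 0.668% in CDDO+TPA (0.137 to 1.97). The TPA interval lay above both others. This ratio needs no library scaling, but it rests on the same reads through which Psmb8 entered the comparison and is no separate support. Psmb9 relative to Psmb6, the caspase-like subunit gene, stood at 1.14%, 0.901% and 2.11%, with intervals that overlapped. Psmb10 relative to Psmb7, the trypsin-like subunit gene, stood at 10.96% (8.89 to 13.4), 11.5% (9.05 to 14.4) and 16.7% (13.8 to 20.1). Psmb9 shares the stretch between the starts with Tap1, shown above, yet stood 25.0-fold below it per kilobase in control (10.6 to 77.4), 21.4-fold in TPA (9.10 to 66.3) and 9.20-fold in CDDO+TPA (4.78 to 20.3). Psmb8, between Tap1 and Tap2, was higher in TPA, whereas both neighbours were lower there by less than the size rule. The antisense gene Gm20496 of GENCODE spans 64.5% of the exon length of Psmb8 on the other strand, so reads of either cannot be told apart. Likewise Gm16156 spans all exons of Psmb10. On the strand opposite to B2m, the coding gene Patl2 spans all exons, introns of Patl2 included, and had 7, 9 and 15 reads in the table. Gm15821 spans 26.2% of the exon length of Tap2 and Gm19412 spans 24.1% of that of Tapbp, also on the other strand. Psmb9 as annotated in GENCODE spans 7.08% of the exon length of Tap1, unlike in the annotation of the counts. Reads there cannot be told apart either, which bears on the ratio of Psmb9 to Tap1.

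**Figure D2:**
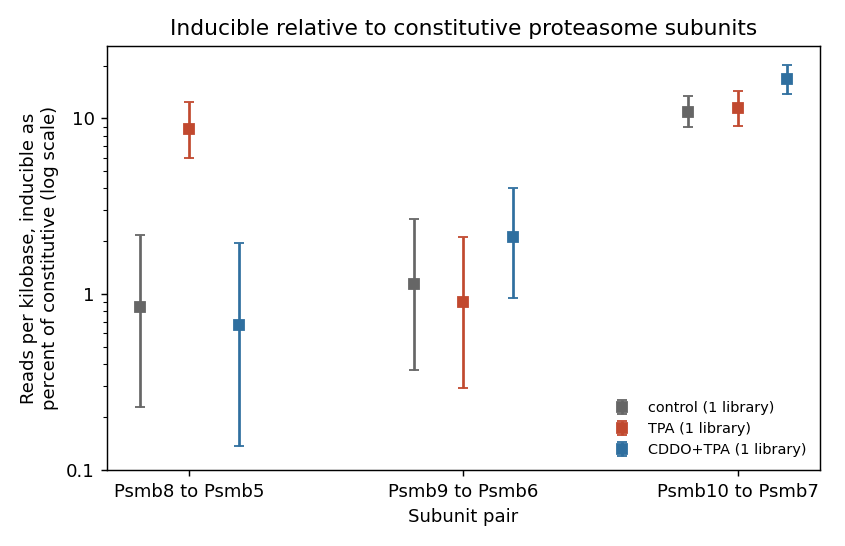
Reads per kilobase of each inducible proteasome subunit gene as a percent of its constitutive counterpart, on a log scale, by library (1 each), with 95% counting intervals as bars. Psmb8 reached 8.69% of Psmb5 in TPA against 0.845% and 0.668% in the other libraries, and Psmb10 lay between 10.96% and 16.7% of Psmb7.

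Cd74, which encodes the invariant chain, had 189 reads in control, 54 in TPA and 43 in CDDO+TPA. Control was the high library, and both treated libraries were low. Cd74 was 3.48-fold lower in TPA (2.56 to 4.80). Of all 2312 genes with 100 to 300 reads in control, 43 were past the size rule with a ratio as low. The class II chains that the invariant chain accompanies were nearly absent, with 0, 1 and 0 reads for H2-Aa, 1, 0 and 1 for H2-Ab1 and 0, 6 and 4 for H2-Eb1. Leukocytes are the usual source of class II transcripts, and their 6 measured markers did not all move alike. In TPA against control, 4 were higher past the size rule (Cd79a, Cd68, Coro1a and Cd53) and 1 lower (Lyz2). Of all measured genes, 9.57% were higher and 5.91% lower. Cd79a had 6, 24 and 2 reads and Coro1a had 8, 21 and 11. Cd68 had 22.1, 52.2 and 71.2 CPM and Cd53 had 0.749, 3.77 and 29.9 CPM, both lowest in control. Cd14 had 39.1, 33.3 and 32.7 CPM, highest in control, and Lyz2 had 6.12, 2.01 and 8.36 CPM, lowest in TPA. The part of other cells in the Cd74 result was not tested. In bulk libraries, fewer cells of a type and less RNA per cell cannot be told apart.

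**Figure D3:**
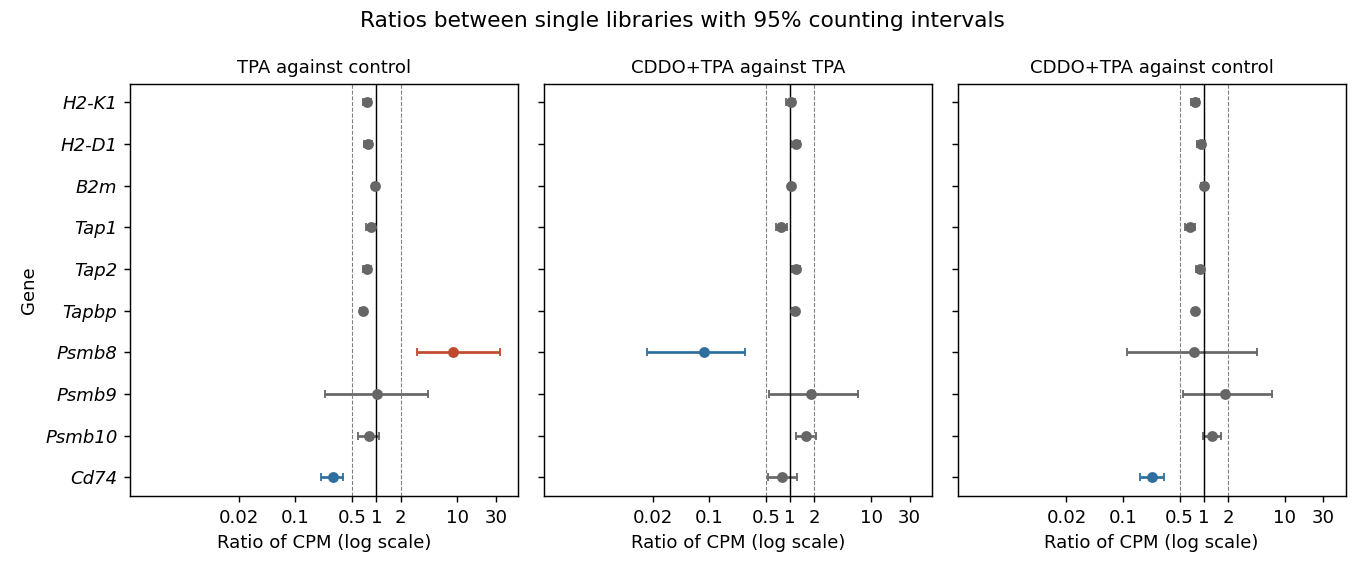
Ratio of CPM between 2 single libraries for each member on a log scale, with 95% counting intervals as bars, for TPA against control, CDDO+TPA against TPA and CDDO+TPA against control. Dashed lines mark ratios of 0.5 and 2, red marks higher and blue lower past the size rule. Psmb8 lies beyond the lines upward in TPA against control and downward in CDDO+TPA against TPA, and Cd74 downward in the panels that compare with control.

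Setting CDDO+TPA beside TPA compares 1 library of cells given both agents with 1 library of cells given the promoter alone. Psmb8 was lower past the size rule, and the other 9 members were not past it, beside 15.6% of all measured genes, 7.87% higher and 7.78% lower. Psmb8 was 11.6-fold lower (3.64 to 58.7), with the low level resting on 3 reads. Psmb10 was 1.56-fold higher (1.18 to 2.06) and Tap1 1.28-fold lower (1.10 to 1.49). Small differences upward with intervals that excluded 1 were also found for Tap2 (1.18-fold, 1.05 to 1.33), H2-D1 (1.17-fold, 1.04 to 1.32) and Tapbp (1.14-fold, 1.05 to 1.23). Intervals for H2-K1, B2m, Psmb9 and Cd74 included 1. This comparison and that of TPA with control share the TPA library, so a low or high value there moves both in opposite directions.

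In CDDO+TPA against control, Cd74 was the member past the size rule, 4.33-fold lower (3.09 to 6.18), beside 11.4% of all measured genes, 8.02% higher and 3.37% lower. Tap1 was 1.49-fold lower (1.28 to 1.73), H2-K1 1.29-fold lower (1.14 to 1.45) and Tapbp 1.29-fold lower (1.20 to 1.38). Intervals for the other 6 members included 1, among them Psmb8, with 3 reads against 4.

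The wider class I list held 31 genes, of which 17 were measured and 9 had 0 reads in every library. Among those without reads, H2-Q6 overlaps H2-Q8, H2-Q7 overlaps H2-Q9, and H2-T9 lies within H2-T22, each on the same strand. Reads over overlapping entries may have been counted for neither, so 0 reads there do not show absence. In TPA against control all 17 had negative log2 fold changes, with a median of -0.56. Of all 13100 measured genes, 6556 were negative. B2m, 1 of the 17, turned positive with library totals or upper-quartile scaling. The intervals of B2m, H2-Bl, H2-Q10, H2-T3, H2-T24 and Hfe included 1. H2-Q4 and H2-M5 were lower past the size rule. Those past the rule are 11.8% of the 17, beside 15.5% of all measured genes. H2-Q4, a nonclassical class I gene of the Q region, had 92.0, 41.8 and 56.1 CPM and was 2.20-fold lower in TPA (1.93 to 2.51). The sum of the 23 listed H2 class I genes other than H2-K1 and H2-D1 was 1.80-fold lower in TPA (1.65 to 1.95). Any reads left out where entries overlap are missing from that sum. H2-T23, which encodes the Qa-1 ligand of NK cell receptors, had 74, 36 and 60 reads, just short of the rule at a log2 fold change of -0.99. In CDDO+TPA against TPA the list had a median of 0.32, with Mr1 and Hfe higher past the rule, or 11.8% beside 15.6% of all measured genes. Mr1, which presents vitamin B metabolites to T cells, had 450, 298 and 637 reads, which made it 2.16-fold higher in CDDO+TPA than in TPA (1.88 to 2.48). Hfe, a class I-like regulator of iron uptake, had 10, 5 and 22 reads.

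Of the 13 other loading and trimming genes, all measured, 2 were lower in TPA against control. These are 15.4% of the 13, beside 15.5% of all measured genes past the rule. None was past the rule in CDDO+TPA against TPA, beside 15.6% of all measured genes. Erap1, the aminopeptidase that trims peptides in the endoplasmic reticulum, had 187, 79.8 and 103 CPM and was 2.34-fold lower in TPA (2.13 to 2.58). Tapbpl, a tapasin-related peptide editor, had 343, 130 and 246 reads and was 2.62-fold lower (2.14 to 3.23). The chaperone genes Calr and Canx had log2 fold changes of 0.07 and -0.25, short of the rule. In the proteasome list, 14 genes other than the members were measured. Psme2b was past the rule, lower in TPA against control but short of it with library totals or upper-quartile scaling. That is 7.14% of the 14, beside 15.5% of all measured genes. Psme2 and Psme1 encode the interferon-inducible activator, and Psme2b is a copy of Psme2 whose reads may not be separable from it. Summed, Psme2 and Psme2b were 1.84-fold lower in TPA (1.62 to 2.08), while Psme1 was 1.35-fold higher (1.17 to 1.56). Per kilobase, Psme2 without Psme2b stood at 122% of Psme1 in control (106 to 142). It stood at 52.9% in TPA (45.1 to 62.0) and 71.5% in CDDO+TPA (61.5 to 83.0). Psme2 reads counted under Psme2b would be missing from these percents.

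In the class II list, 10 genes besides Cd74 were measured. H2-DMa, a chain of the peptide exchange factor that acts on class II molecules, had 157, 289 and 124 reads. It was 1.85-fold higher in TPA than in control (1.52 to 2.26), below the size rule, and 2.31-fold lower in CDDO+TPA than in TPA (1.86 to 2.87), past it. Cd74 relative to H2-DMa, per kilobase, was 141% in control (114 to 175), 21.9% in TPA (16.1 to 29.4) and 40.6% in CDDO+TPA (28.0 to 57.9). Mif, the ligand of CD74, and its co-receptor gene Cd44 had log2 fold changes of 0.18 and -0.50 in TPA against control, short of the rule. Ackr3, a chemokine receptor that also binds MIF, had 43, 15 and 24 reads and was 2.85-fold lower in TPA (1.55 to 5.52).

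Of 29 measured regulators, 2 were higher and 3 lower in TPA against control, or 17.2% past the rule beside 15.5% of all measured genes. None of them was past the rule in CDDO+TPA against TPA, beside 15.6% of all measured genes. Nlrc5, the transactivator of class I genes, had 100.2, 84.2 and 80.0 CPM and was 1.19-fold lower in TPA (1.07 to 1.32). Ciita, the class II transactivator, had 1, 9 and 8 reads. Irf1, a transcription factor of the interferon response, had 680, 302 and 380 reads and Irf7, another such factor, had 48, 18 and 37, both lower past the rule in TPA. Stat3 was 2.04-fold lower (1.90 to 2.18), short of the rule with library totals or upper-quartile scaling. Rfxap, a subunit of the RFX complex that binds class II promoters, was 2.06-fold higher (1.74 to 2.44). The interferon genes Ifnb1 and Ifng had 0 reads in every library, which allows up to 0.380 CPM for 3 counts in the smallest of the scaled libraries.

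**Figure D4:**
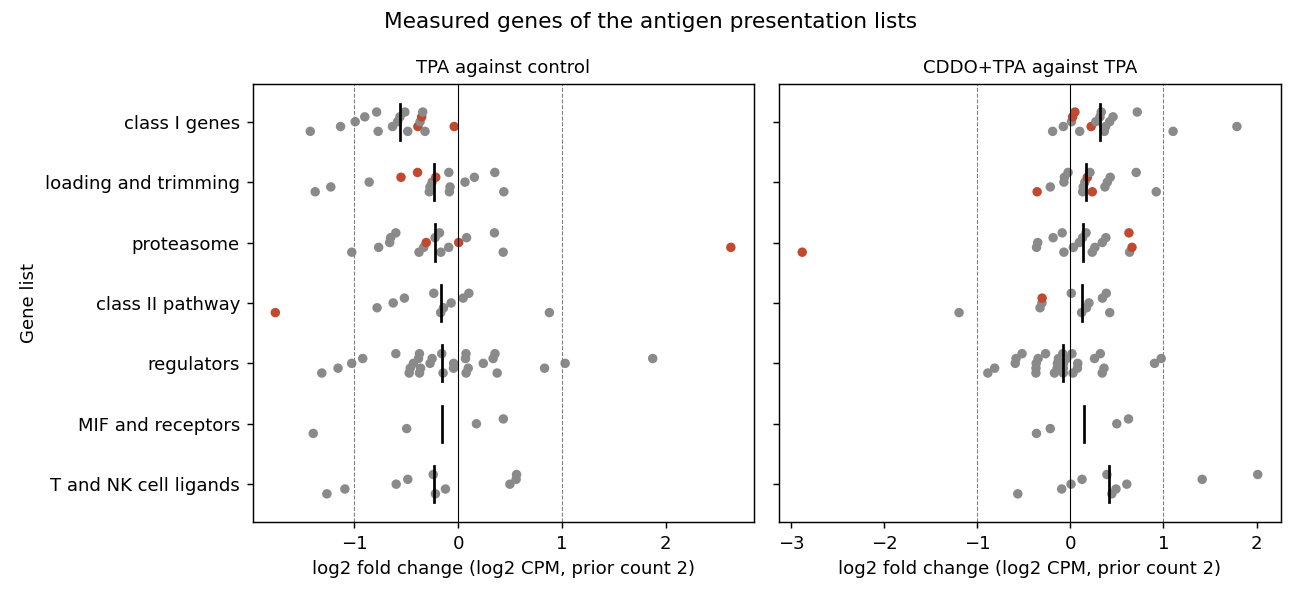
Log2 fold changes of the measured genes in 7 antigen presentation lists, for TPA against control (left) and CDDO+TPA against TPA (right), with members in red, other genes in grey, list medians as black bars and dashed lines at -1 and 1. All 17 class I genes lie below 0 on the left, B2m at -0.04 with a sign that turned under other scalings. The medians of the class I list are -0.56 and 0.32.

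Ligands of T and NK cell receptors accompany presented peptides at the cell surface, and 10 of 17 listed were measured. In TPA against control Cd274 and Pvrl2 were lower past the rule, or 20.0% of the 10 beside 15.5% of all measured genes. Cd274, which encodes PD-L1, had 58, 26 and 37 reads, and Pvrl2, which encodes nectin-2, had 233, 96.8 and 97.3 CPM. In CDDO+TPA against TPA Cd80 and Ulbp1 were higher, or 20.0% of the 10 beside 15.6% of all measured genes. Cd80, a costimulatory ligand of CD28, had 15, 23 and 98 reads, a level 4.30-fold higher (2.71 to 7.10). Ulbp1, a stress ligand of the NKG2D receptor, had 182, 153 and 408 reads, a level 2.69-fold higher (2.23 to 3.26). Across all lists, 94 genes other than members were measured, of which 2 were higher and 11 lower in TPA against control, and 4 higher and 1 lower in CDDO+TPA against TPA. These are 13.8% and 5.32% of the 94, beside 15.5% and 15.6% of all measured genes. By direction, 9.57% of all measured genes were higher and 5.91% lower in TPA against control. In CDDO+TPA against TPA these shares were 7.87% and 7.78%.

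The stretch of chromosome 17 from Tapbp to H2-D1 (33919478 to 35267497) held 109 genes, of which 67 were measured, 60 of them other than members. Of these 60, 12 were higher and 2 lower in TPA against control, and 3 higher and 9 lower in CDDO+TPA against TPA. These are 23.3% and 20.0% of the 60, beside 15.5% and 15.6% of all measured genes, and both comparisons share the TPA library. By direction, 9.57% of all measured genes were higher and 5.91% lower in TPA against control. In CDDO+TPA against TPA these shares were 7.87% and 7.78%. The higher genes in TPA included Notch4, Tnxb and Lta, and the lower were the complement genes C4b and Cfb. C4a, a close copy of C4b, was among the higher, so reads of this pair are uncertain. Of the members, 6 of the 7 there were not past the rule in these comparisons.

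The genes nearest to Psmb8 and Cd74 in pattern were sought among 11433 genes with at least 30 reads in some library, by distance over 2 log2 fold changes, CDDO+TPA against TPA and TPA against control, which rest on 3 libraries. For Psmb8 they included 1700001L05Rik (163, 956 and 126 reads, distance 0.085) and Gpr62 (18, 118 and 13 reads, distance 0.12). For Cd74 they were Slc25a25 (1239, 384 and 345 reads, distance 0.18), Med12l (39, 9 and 8 reads, distance 0.22) and Gm16675 (30, 9 and 6 reads, distance 0.27).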

How the data were processed

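RNA of 3 libraries was analysed from 1 table of whole-number read counts per gene symbol, deposited by the authors without normalization. Per the file headers, featureCounts 1.5.3 counted primary alignments on genes of UCSC mm10 without a strand option, and the columns carry a mark of duplicate removal. HISAT2, Picard and DESeq are named without a version in the submitters' processing notes. The way duplicates were removed, and any pooling of cultures, are not given in the sources used here. JB6 cells and the reference genome may carry different class I alleles, which could lose or move class I reads in all libraries alike; this was not tested. Exon length is that of the deposited table.

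Library totals of 8190078 (control), 7813035 (TPA) and 7872089 (CDDO+TPA) were scaled by TMM factors of 0.978, 1.02 and 1.00 (edgeR 4.0.16, R 4.3.3). Log2 CPM used a prior count of 2, which understates the fold changes of genes with few reads. Folds are CPM ratios without a prior count, with exact conditional binomial (Clopper-Pearson) intervals, and CPM intervals are exact Poisson intervals, all at 95%. Reads are not independent molecules, and these intervals hold no spread between cultures. No p-value was computed, as each group had 1 library. The calculation was tested on simulated data. Other scalings (DESeq2 1.42.0 size factors, library totals, upper quartile), prior counts of 0.5 and 5, other filters and a fold of 1.5 were tried.

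The members and gene lists were chosen with earlier results of these data known. Named are the members, the listed genes past the size rule in a comparison, a fixed set of regulators and proteasome genes, and for each member past the rule with at least 30 reads the 3 genes nearest in pattern. Some genes under these rules are not reported here. H2-T23, H2-Aa, H2-Ab1, H2-Eb1, Mif, Cd44, Calr, Canx, Ifnb1, Ifng, the cell type markers and the chromosome 17 neighbours were named after their values were seen.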

Additional observations from a re-analysis of the deposited data

How the results depend on the processing

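No paired analysis was possible because each group had 1 library, and leaving out a library left no comparison. No member changed the direction of a difference past the size rule, and Psmb8 and Cd74 kept their calls under the scalings and prior counts tried. The log2 fold change of Psmb8 ranged from 2.15 to 2.99 in TPA against control and from -3.33 to -2.32 in CDDO+TPA against TPA. That of Cd74 ranged from -1.79 to -1.70 in TPA against control and from -2.10 to -1.99 in CDDO+TPA against control. With at least 5 CPM required in 1 library, Psmb8 and Psmb9 left the comparison. Members past the rule then numbered 1 in TPA against control (0 higher) in place of 2, and 0 in CDDO+TPA against TPA (0 lower) in place of 1. All genes past the rule numbered 1333 and 1279 with that filter, in place of 2028 and 2050, and the listed genes that are no members numbered 3 in place of 6 in CDDO+TPA against control. At a fold of 1.5, Psmb10 was also past the rule in CDDO+TPA against TPA, making 2 members, 1 of them higher. The listed genes that are no members then numbered 27, 15 and 17 in TPA against control, CDDO+TPA against TPA and CDDO+TPA against control, in place of 13, 5 and 6. All genes then numbered 3833, 3684 and 2897, in place of 2028, 2050 and 1493. These counts moved by construction, as fewer genes or a smaller fold entered. Psmb8 and Psmb9, with at most 35 and 9 reads, are limited by depth.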
